A study of Mus musculus with 70 samples.

Results

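The genes described here encode the enzymes of glycolysis and the proteins that decide where its product, pyruvate, goes. They were taken by gene symbol, as 31 named genes out of the 23078 genes in the expression table: 2 glucose transporters, 19 enzymes of the path from glucose to lactate (2 of them make the fructose 2,6-bisphosphate that drives phosphofructokinase), 2 lactate transporters, 4 kinases that act on pyruvate dehydrogenase, 1 subunit of that complex and the 2 subunits of the mitochondrial pyruvate carrier, with Bnip3, a mitophagy receptor, counted as the last. All 31 were in the table, and all 31 reached a mean of 1 TPM in at least 1 group, the level required for testing, as did 15508 genes in all. TPM (transcript level scaled by transcript length and by the library's total) is a level per length, so levels can be compared between genes, but it keeps no sequencing depth.

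Glycolysis splits glucose into pyruvate in the cytosol. Pyruvate is then either reduced to lactate by lactate dehydrogenase and exported with a proton by monocarboxylate transporters, or carried into mitochondria by the Mpc1-Mpc2 carrier and oxidised by pyruvate dehydrogenase, which the Pdk kinases switch off by phosphorylation. Many of these enzymes exist as isozymes with their own genes, and proliferating cells, neural progenitors among them, are known for strong glycolytic expression, while neurons rely more on mitochondrial oxidation.

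The RNA came from wild-type C57Bl/6 mouse dorsal cerebral cortex, dissociated with papain, sorted by fluorescence and sequenced as bulk libraries at daily stages. Neural stem cells (NSC; 33 libraries at 10 stages from E10.5 to E18.5 and at postnatal day 1, PN) came from animals of the Hes5::GFP line, in which the Hes5 gene, a Notch target, drives green fluorescent protein. Basal progenitors (BP; 23 libraries at 8 stages from E12.5 to PN) and newborn neurons (NBN; 14 libraries at 5 stages from E15.5 to PN) came from the Tbr2::GFP line, in which the gene for a basal progenitor transcription factor, also named Eomes, drives the reporter. The labels do not say how BP and NBN were told apart within that line. The reporter line therefore changes together with cell type in each comparison against NSC, and their effects cannot be told apart. Groups held 2 to 4 libraries. The labels do not say whether these came from separate animals, so p-values measure the spread between libraries, which may be technical.

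Hes5 separated NSC from the other groups, and Eomes separated BP from NBN but not from NSC. Hes5 was at 47.4 to 536 TPM in NSC and at most 8.21 TPM in BP and NBN, Eomes had a median of 407 TPM in BP (248 to 715), 265 TPM in NSC (20.9 to 737) and 22.4 TPM in NBN, and the neuronal tubulin Tubb3 had a median of 3339 TPM in NBN. Tubb3 was present in NSC as well, at a median of 1439 TPM. One PN library titled as NSC carries a conflicting cell type label and was kept as NSC. All libraries are labelled female, but the summed level of 4 Y-linked genes was above 20 TPM in 40 of the 70, among them 5 of 6 NSC libraries at E10.5 and E11.5, 8 of 11 at E13.5 to E15.5 and 3 of 9 from E17.5 on. The part of sex in the results was not tested. It bears on the X-linked members Pgk1, Pdha1 and Pdk3.

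Promoters of glycolytic genes are known for short binding motifs of the hypoxia-inducible factors, whose core reads ACGTG or GCGTG. RefSeq promoters of the GRCm38.p6 build, 250 bases before to 50 after the start, were at hand for 30 of the 31 members, Slc2a3 being the other. ACGTG, read on both strands, lay in a promoter of 17 of these 30 genes (56.7%) against 21.8% of all 27025 genes with an entry, and GCGTG in 21 (70%) against 35.2%. Per promoter of the same length, the shares were 45.7% of 46 against 19.6% of 32851 for ACGTG and 56.5% against 32.4% for GCGTG. The members all reached the level for testing, whereas the 27025 genes were not limited to the 15508 tested. The 2 sets were not matched for expression or base composition. A match is a run of letters and not a site of binding. Of the promoters below, chosen after the values were seen, 3 belong to lactate dehydrogenase A (Ldha), the lactate exporter Slc16a3 and phosphoglycerate kinase 1 (Pgk1), which stood highest in early NSC, and the fourth to Mpc1, which stood lowest there. All are on the plus strand, 5′ to 3′, with both motifs in capitals as ACGTG or GCGTG, or as CACGT or CACGC where the motif is on the other strand.
Ldha, chr7:46845554-46845853: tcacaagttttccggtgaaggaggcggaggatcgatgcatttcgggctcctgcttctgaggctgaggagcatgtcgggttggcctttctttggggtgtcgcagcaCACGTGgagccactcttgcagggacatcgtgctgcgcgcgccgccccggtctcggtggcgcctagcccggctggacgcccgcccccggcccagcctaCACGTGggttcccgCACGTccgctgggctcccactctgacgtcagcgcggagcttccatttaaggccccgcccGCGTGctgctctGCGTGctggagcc
Slc16a3, chr11:120948817-120949116: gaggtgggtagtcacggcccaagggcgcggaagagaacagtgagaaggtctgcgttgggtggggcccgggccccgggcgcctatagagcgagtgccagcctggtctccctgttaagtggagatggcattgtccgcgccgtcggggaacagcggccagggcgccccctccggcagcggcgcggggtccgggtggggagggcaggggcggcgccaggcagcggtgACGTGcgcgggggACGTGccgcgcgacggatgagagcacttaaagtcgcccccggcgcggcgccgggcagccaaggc
Pgk1, chrX:106186850-106187149: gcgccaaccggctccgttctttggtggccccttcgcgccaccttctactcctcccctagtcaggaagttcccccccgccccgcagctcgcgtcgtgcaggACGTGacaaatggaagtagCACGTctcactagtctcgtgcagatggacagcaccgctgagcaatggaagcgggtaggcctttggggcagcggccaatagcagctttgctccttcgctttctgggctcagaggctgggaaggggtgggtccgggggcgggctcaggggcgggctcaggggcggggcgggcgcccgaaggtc
Mpc1, chr17:8283537-8283836: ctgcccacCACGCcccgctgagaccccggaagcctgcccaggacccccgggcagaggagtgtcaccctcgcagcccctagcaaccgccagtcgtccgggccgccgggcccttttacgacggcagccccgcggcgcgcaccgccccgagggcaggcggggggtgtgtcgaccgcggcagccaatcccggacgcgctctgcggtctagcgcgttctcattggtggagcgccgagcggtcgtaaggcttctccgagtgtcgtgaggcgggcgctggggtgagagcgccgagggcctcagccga
The Ldha promoter shown held 5 matches to ACGTG and 2 to GCGTG, where a palindromic CACGTG counts once on each strand. Those of Slc16a3 and Pgk1 held 2 matches to ACGTG and 0 to GCGTG, and that of Mpc1 held 0 and 1. Ldha and Mpc1 each have a further RefSeq promoter that is not shown. That of Ldha held 0 matches to ACGTG and 2 to GCGTG, and that of Mpc1 held 0 and 0. Other members had the opposite order. Pfkm, Pdk2 and Pfkfb2, also lowest in NSC at E10.5, had a promoter with 3, 2 and 2 matches to ACGTG. The promoter of Gpi1, highest there, held 0 matches to ACGTG and 0 to GCGTG. Whether matches go with level was not tested.

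NSC at E10.5 had the highest group mean of all 23 groups for 20 of the 31 members and the lowest for 6. The summed level of the 31 members averaged 23292 TPM in NSC at E10.5, 15749 at E11.5, 9445 at E12.5 and 6139 at E16.5. It averaged 4278 to 6951 TPM across BP stages and 4596 to 6211 TPM across NBN stages. Gapdh, glyceraldehyde-3-phosphate dehydrogenase (chr6:125161715-125166467 of GRCm38, minus strand), was the most abundant member, with 9327, 8634 and 7758 TPM in the 3 NSC libraries at E10.5 and 3414, 3843 and 3478 TPM at E12.5. Over the 23 group means, Pearson's r with Gapdh was highest, at 0.96, for Gpi1, Aldoa, Slc16a3, Tpi1 and Eno1, and reached 0.94 for Pgk1 and Pgam1 and 0.92 for Ldha. It was lowest for Pfkfb2 at -0.95, Mpc1 at -0.89, Mpc2 at -0.83, Pdk2 at -0.78 and Eno2 at -0.74. These values are descriptions over groups that share cell type, stage and the TPM total.

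**Figure D1:**
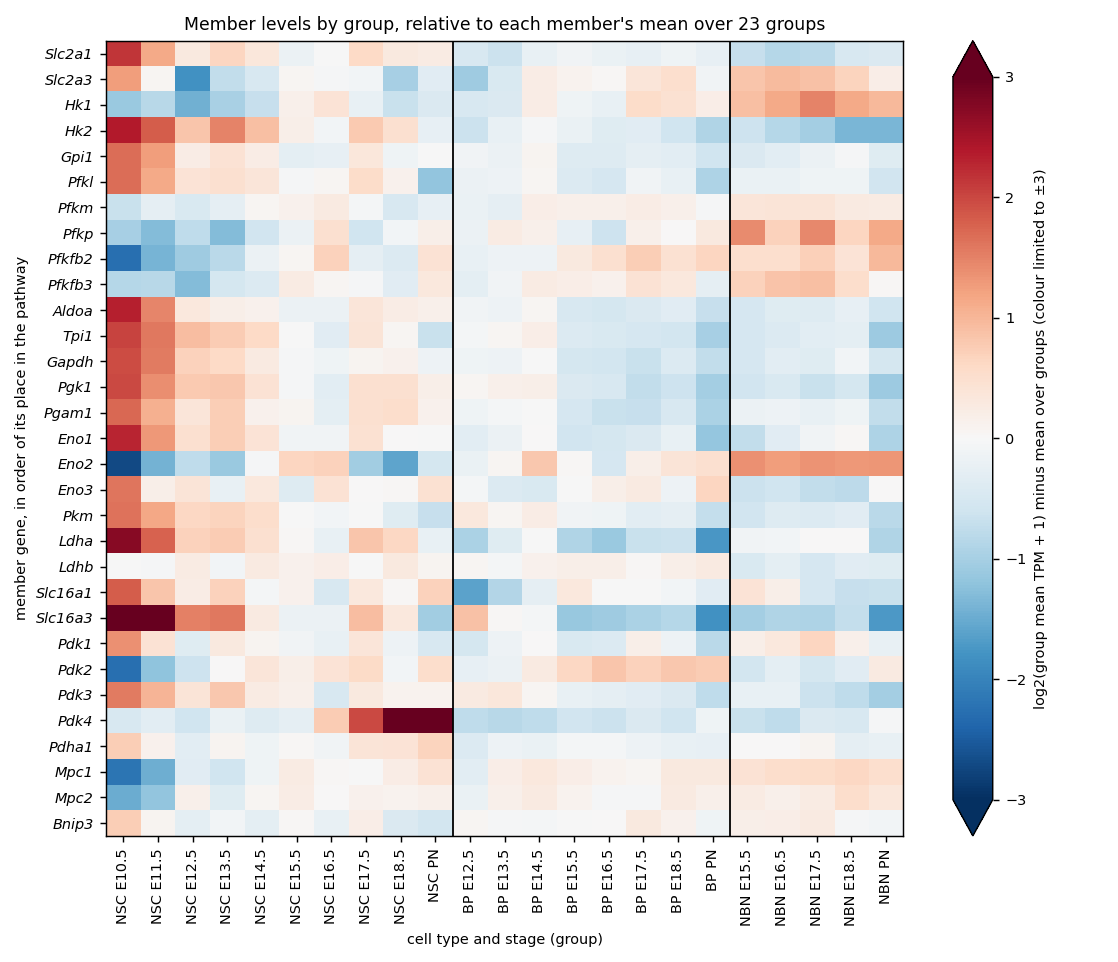
Level of each of the 31 members (rows) in each of the 23 groups (columns, by cell type and stage), as log2(group mean TPM + 1) minus the member's mean over groups, with the colour scale limited to 3 in either direction. NSC at E10.5 is the highest column for 20 members and the lowest for 6, Mpc1, Mpc2, Pdk2, Eno2 and Pfkfb2 among the latter.

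Most of the path from glucose to lactate was lower in NSC of E13.5 to E15.5 (11 libraries) than in NSC of E10.5 and E11.5 (6 libraries), and the mitochondrial pyruvate carrier was higher. A member was called where its difference in log2(TPM + 1), with stages weighted equally, was at least 1 in size and its limma p, adjusted over all tested genes by Benjamini-Hochberg, was under 0.05. By this rule 14 members fell and 5 rose, where 19% of all genes were called (13.7% higher and 5.26% lower). The median difference was -0.98 over the members and 0.14 over all genes. By the adjusted p alone, with no fold required, 30 of the 31 differed, against 77.1% of all genes. Of the members, 13 were lower and 5 higher with no overlap between the libraries of the 2 windows, against 9.72% and 17.8% of all genes. Bulk RNA cannot tell fewer cells of a type from less RNA per cell.

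At the entry of the path, the glucose transporter Slc2a1 (Glut1) was at 95.4 to 251 TPM in early NSC, median 149, and at 38.5 to 80.6 TPM, median 62, in the middle window. Its windows did not overlap, and it fell by 1.37 ± 0.07 (SE). The neuronal glucose transporter Slc2a3 (Glut3) was at 11.3 to 40.9 TPM early and 4.44 to 15.7 TPM later, so its windows overlapped, and its fall of 1.06 ± 0.20 was the least precise of the calls. Hexokinase 2 (Hk2), which traps glucose as its phosphate, was at 41.7, 40.2 and 40.8 TPM in the E10.5 libraries and at 33.1, 27.8 and 20.8 TPM at E11.5. In the middle window Hk2 spanned 7.07 to 23.8 TPM, which overlaps the lowest E11.5 library, and it fell by 1.24 ± 0.10. Hexokinase 1 (Hk1), the usual isozyme of neural tissue, gave a difference of 0.45 ± 0.10, short of the fold required.

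Among the enzymes of the middle of the path, aldolase A (Aldoa, chr7:126795234-126800751, minus strand), which splits the 6-carbon sugar, had one of the largest differences. It was at 591 to 1463 TPM in early NSC, median 1075, and at 225 to 351 TPM, median 282, in the middle window. Its windows did not overlap and it fell by 1.84 ± 0.06 (limma, Benjamini-Hochberg adjusted p = 6.34e-33). Gapdh fell by 1.47 ± 0.05, the glucose-phosphate isomerase Gpi1 by 1.35 ± 0.06, the triose-phosphate isomerase Tpi1 by 1.35 ± 0.06 and Pgk1 by 1.28 ± 0.05. The liver-type phosphofructokinase Pfkl fell by 1.13 ± 0.06 and the mutase Pgam1 by 1.07 ± 0.05, while the muscle-type Pfkm and platelet-type Pfkp gave differences of 0.44 ± 0.05 and 0.44 ± 0.12. None of Gpi1, Pfkl, Tpi1, Gapdh, Pgk1 and Pgam1 had overlapping windows. Several of these genes have near-identical pseudogene copies, among them Gapdh, Aldoa, Eno1, Tpi1, Pgk1, Pgam1 and Ldha, so part of their reads may be assigned uncertainly.

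At the lower end, enolase 1 (Eno1), the form of most dividing cells, fell by 1.44 ± 0.07, whereas enolase 2 (Eno2, chr6:124760053-124769673, minus strand), known as the neuron-specific form, rose. Eno2 was at 2.48 to 8.29 TPM in early NSC, median 4.25, and at 8.38 to 42.7 TPM, median 16, in the middle window. The windows lay next to each other without overlap, with a difference of 1.86 ± 0.11 (adjusted p = 6.26e-21). Eno3, at -0.98 ± 0.11, and pyruvate kinase (Pkm), at -0.997 ± 0.05, missed the fold required although the Pkm windows did not overlap (1872 to 3218 TPM against 886 to 1626 TPM). The gene-level table does not separate the isoforms of Pkm.

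Lactate production and export held some of the largest differences. Ldha (chr7:46841475-46855627), which makes lactate, was at 2868, 2836 and 2485 TPM in NSC at E10.5, at 1772, 1103 and 1317 TPM at E11.5 and at 397 to 756 TPM from E13.5 to E15.5. No middle library reached the early range, and Ldha fell by 1.82 ± 0.07 (adjusted p = 1.3e-30). Slc16a3 (chr11:120948480-120960868, plus strand), the proton-coupled transporter that exports lactate from glycolytic cells, was at 94.4, 86.2 and 79.5 TPM at E10.5, at 50.7, 31.2 and 43.2 TPM at E11.5 and at 2.9 to 18.52 TPM in the middle window. Its windows were far apart, and its fall of 2.98 ± 0.12 (adjusted p = 5.37e-28) was the largest of any member. Slc16a1, which carries lactate in either direction, fell by 1.05 ± 0.07. Ldhb, the isozyme that favours the return of lactate to pyruvate, was at 370 to 481 TPM early and 394 to 538 TPM later, a difference of 0.13 ± 0.05 with overlapping windows, which was -0.13 with median-ratio scaling.

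The genes of mitochondrial pyruvate entry moved the other way. Mpc1 (chr17:8282904-8297661) was at 26.4, 27.6 and 27 TPM in NSC at E10.5, at 41, 49.1 and 46 TPM at E11.5 and at 98.2, 88.4 and 113 TPM at E12.5. In the middle window it was at 77.8 to 161 TPM, above every early library, and it rose by 1.66 ± 0.05 (adjusted p = 1.34e-34). Mpc2 (chr1:165460637-165481214) was at 20.5, 21.7 and 21.7 TPM at E10.5 and at 43.5 to 77.7 TPM in the middle window, and rose by 1.31 ± 0.06. Pdk2 (chr11:95026258-95041354, minus strand), a broadly expressed inhibitor of pyruvate dehydrogenase, was at 4.79 to 14.4 TPM early and at 23.3 to 40.1 TPM later, with no overlap, and rose by 1.91 ± 0.08 (adjusted p = 4.78e-27). Pfkfb2, which makes the activator of phosphofructokinase, rose by 1.53 ± 0.10. Pdk3, at -0.88 ± 0.06, Pdk1, at -0.79 ± 0.12, and the pyruvate dehydrogenase subunit Pdha1, at -0.43 ± 0.05, did not reach the fold required, and neither did Bnip3 at -0.51 ± 0.07.

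The E10.5 libraries weigh on these counts, and the windows themselves were chosen with earlier results of these data known. With E11.5 alone as the early window, a choice made after seeing the data, 11 members were called, 5 higher and 6 lower, where 8.03% of all genes were called higher and 3.89% lower. Slc2a1, Slc2a3, Hk2, Pfkl, Pgk1, Pgam1, Eno1 and Slc16a1 were no longer called, with differences from -0.48 for Slc2a3 to -0.97 for Pgk1. Over both early stages, single libraries decided some calls. That of Slc2a3 was lost without replicate 1 of E10.5, replicate 1 of E14.5 or replicate 2 of E15.5 (-0.946 to -0.997) and that of Slc16a1 without replicate 1 of E11.5 (-0.967). Markers of other cells moved with the same comparison, and their part was not tested. Of 12 markers of postmitotic neurons 11 rose, of 10 cell cycle genes 6 fell, of 9 erythroid genes 8 fell, and of 7 markers of interneurons and the ventral forebrain 4 rose. Of 6 basal progenitor markers 5 rose, and of 8 markers of meninges and choroid plexus 5 fell and 1 rose. The summed erythroid level was 9566, 6120 and 3733 TPM in the E10.5 libraries and 2483, 1681 and 8836 TPM at E11.5, and no later NSC group averaged above 348 TPM. Beside these values, the summed level of the members was 25022, 23822 and 21033 TPM at E10.5 and 17609, 13346 and 16294 TPM at E11.5. The summed neuron markers averaged 483 TPM at E10.5, 2567 TPM at E11.5 and 6623 TPM at E15.5.

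**Figure D2:**
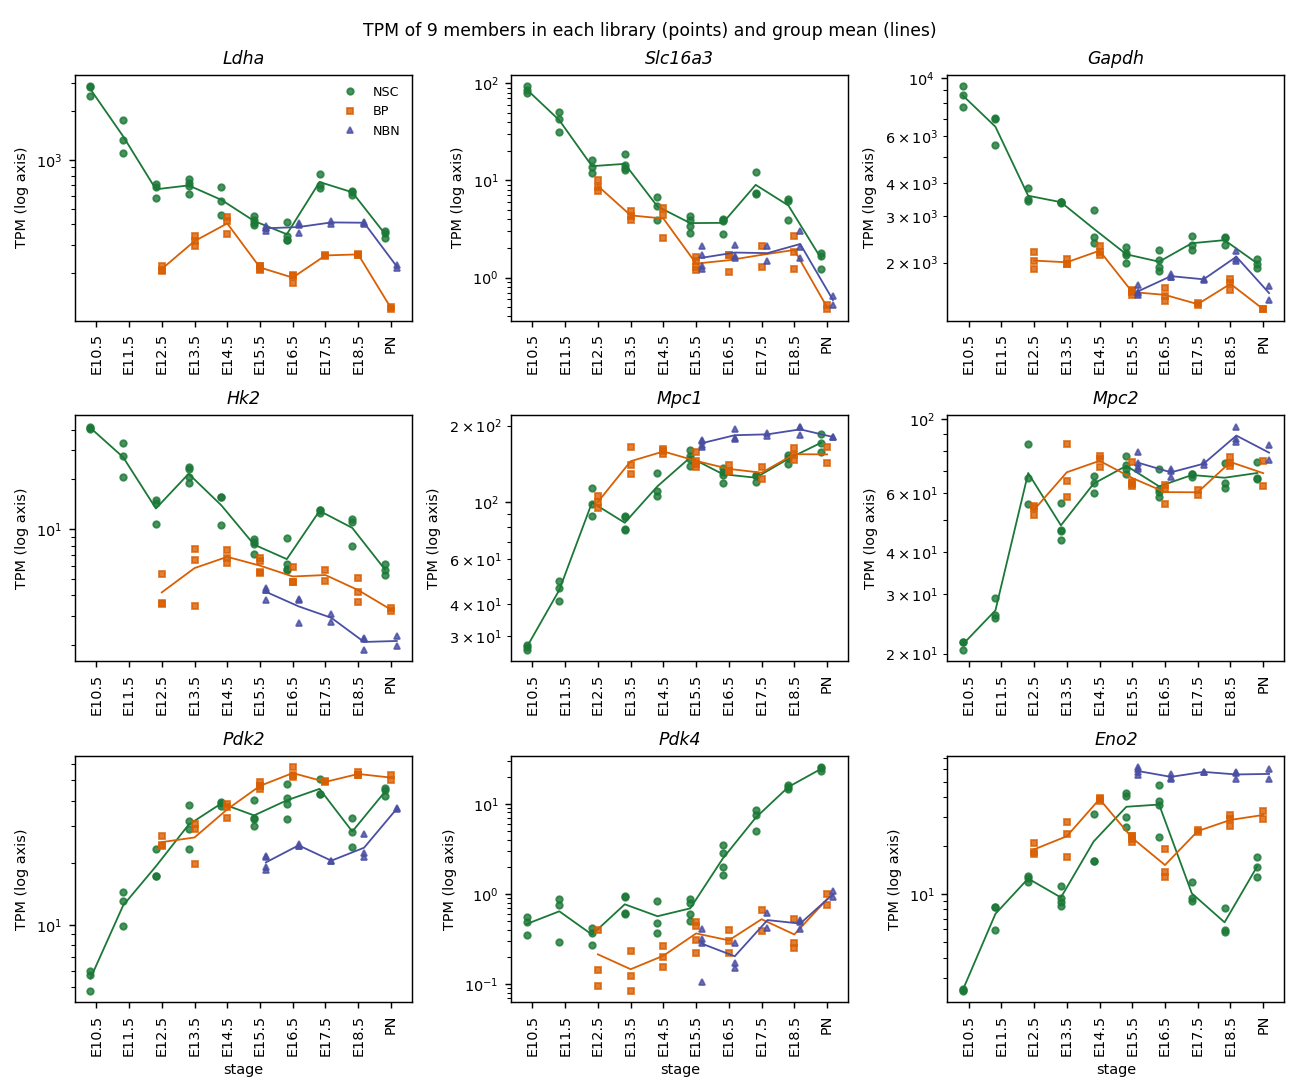
TPM of 9 members in every library against stage, on a log axis, with lines through the group means of NSC, BP and NBN. Ldha and Slc16a3 fall steeply from E10.5 to E12.5 in NSC while Mpc1 and Mpc2 climb, and Pdk4 climbs in NSC after E15.5 to 25.3 TPM while no BP or NBN library exceeds 1.07 TPM.

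Taken day by day, with 1 test for each step between neighbouring stages, 15 members were called in at least 1 of the 9 steps of NSC, in 27 calls of which 12 were higher and 15 lower. Of all genes, 30.5% were called in at least 1 step. At the step to E11.5, where 8.92% of all genes were called (7.59% higher and 1.33% lower), 5 members fell and 2 rose. Slc16a3 fell from a mean of 86.7 to 41.7 TPM, the muscle enolase Eno3 from 43.3 to 15.6 TPM (by 1.39 ± 0.18) and Pdk1 from 36 to 18.2 TPM (by 1.00 ± 0.19), together with Slc2a1 and Slc2a3. Eno2 rose from 2.51 to 7.51 TPM and Pdk2 from 5.51 to 12.4 TPM. At the step to E12.5, where 8.74% of all genes were called (3.95% higher and 4.79% lower), 5 members fell and 2 rose. Ldha fell from 1397 to 658 TPM (by 1.06 ± 0.11, adjusted p = 5.18e-12) and Aldoa from 751 to 338 TPM (by 1.13 ± 0.10, adjusted p = 2.34e-14). Gpi1, Slc16a3 and Slc2a3 also fell at that step, while Mpc2 rose from 26.9 to 69 TPM (by 1.31 ± 0.10) and Mpc1 from 45.4 to 100 TPM (by 1.12 ± 0.08).

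The next days held few calls. Slc2a3 rose at the step to E13.5, where 3.96% of all genes were called (3.6% higher and 0.361% lower), and at the step to E14.5, with 2.68% called (1.62% higher and 1.06% lower), Eno2 rose by 1.02 and Slc16a3 fell by 1.32. No member passed both criteria at the step to E15.5 in limma, where 2.21% of all genes did (1.7% higher and 0.516% lower), although 21 of the 31 had an unadjusted p under 0.05, as did 38.4% of all genes. At the step to E16.5, with 3.92% called (3.06% higher and 0.858% lower), Pdk4 rose by 1.02 ± 0.13 and no other member was called.

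At the step from E16.5 to E17.5 many members were higher again. There 3 members rose and 2 fell, where 12.3% of all genes were called (6.28% higher and 6.05% lower), and the median difference was 0.49 over the members against 0.01 over all genes. Ldha was at 320, 321, 337 and 411 TPM in the 4 libraries at E16.5 and at 813, 674 and 702 TPM at E17.5, above all of the former, and rose by 1.07 ± 0.10 (adjusted p = 7.01e-13). Slc16a3 was at 4, 2.81, 3.85 and 3.95 TPM at E16.5 and at 12.2, 7.33 and 7.47 TPM at E17.5, and rose by 1.08 ± 0.19. Pdk4 rose as well. Eno2 moved in the opposite direction, from 35.8, 47.4, 38.2 and 22.7 TPM to 11.8, 8.98 and 9.38 TPM, a fall of 1.71 ± 0.17 (adjusted p = 7.06e-12), and Pfkp fell by 1.05 ± 0.18. By the adjusted p alone 18 members were higher and 7 lower, against 30% and 27.6% of all genes, with Pgk1 at 0.80 ± 0.08, Pgam1 at 0.78 ± 0.07 and Tpi1 at 0.72 ± 0.09.

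Other cell markers moved at this step too. From E16.5 to E17.5 the mean summed level of neuron markers in NSC went from 5605 to 2394 TPM, that of cell cycle genes from 870 to 1877 TPM, that of radial glia markers from 2484 to 6830 TPM that of astroglial markers from 68.7 to 268 TPM and that of oligodendrocyte precursor markers from 205 to 570 TPM. Their part in the member values was not tested. At the step to E18.5, with 3.79% of genes called (1.84% higher and 1.95% lower), Pdk4 rose by 1.06 ± 0.14. At the step to PN, with 6.44% called (5.44% higher and 0.999% lower), 2 members fell and 1 rose. Pfkl fell from 66, 72.3 and 66.2 TPM to 26.1, 22.3 and 31.6 TPM (by 1.34 ± 0.09), Slc16a3 fell to 1.8, 1.67 and 1.23 TPM, and Eno2 rose by 1.06 ± 0.18.

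**Figure D3:**
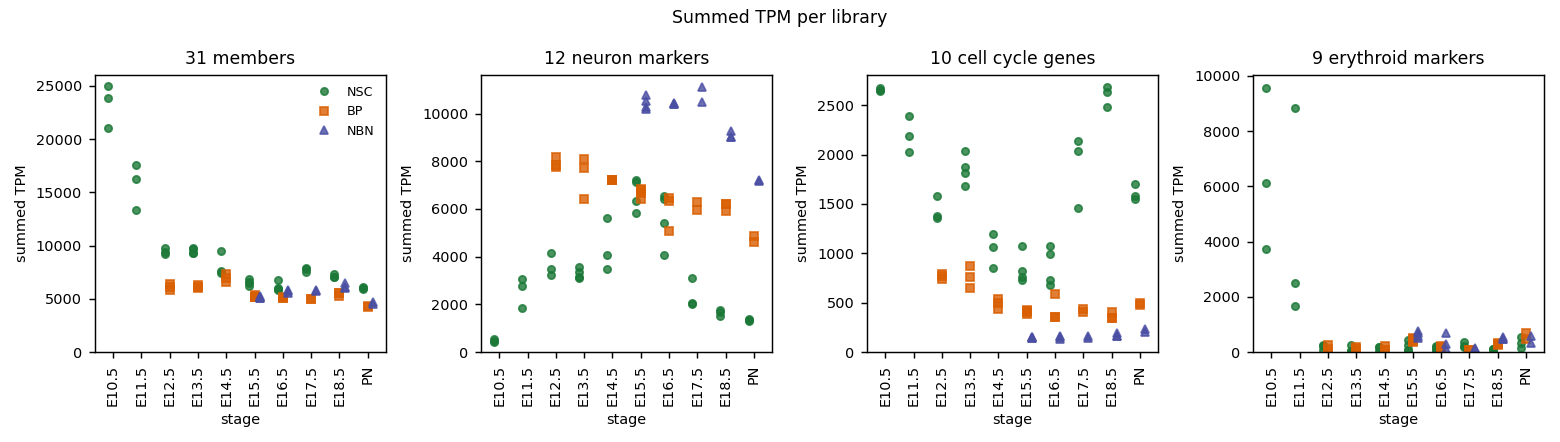
Summed TPM in every library against stage for the 31 members, 12 postmitotic neuron markers, 10 cell cycle genes and 9 erythroid markers, by cell type. The member sum is highest in NSC at E10.5 (mean 23292 TPM), where the neuron markers are lowest (483 TPM), and the erythroid sum is high in the E10.5 and E11.5 libraries.

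Across the second part of the NSC series, libraries of E17.5 to PN (9) were compared with those of E13.5 to E15.5, which are also the later side of the comparison above. One member was called where 11.8% of all genes were (9.31% higher and 2.45% lower), and the member median was -0.01 against 0.12. By the adjusted p alone 20 differed, against 70.1% of all genes. The member called was Pdk4 (chr6:5483351-5496309, minus strand), a pyruvate dehydrogenase kinase known for induction by fasting and fatty acids. Pdk4 was at 0.371 to 0.938 TPM in the middle window, then at 3.48, 1.64, 2 and 2.82 TPM at E16.5, at 4.94, 7.49 and 8.59 TPM at E17.5, at 16.2, 14.46 and 15.4 TPM at E18.5 and at 25.3, 22.9 and 24.9 TPM at PN. The late libraries lay above every middle library, and Pdk4 rose by 3.15 ± 0.08 (adjusted p = 1.43e-37). The 2 members without overlap were Pdk4 and Pdha1, which was at 101 to 134 TPM late and 70.3 to 92.7 TPM before, a difference of 0.48 ± 0.04 that is below the fold required. Shares of all genes without overlap were 11.2% higher and 2.37% lower. Pkm was at -0.75 ± 0.04 and Eno2 at -0.85 ± 0.10. Ldha stood at -0.01 ± 0.06, a mean over stages that differed: it averaged 730 TPM at E17.5 and 631 TPM at E18.5, above the 560 TPM of the middle window, and 348 TPM at PN. Without PN, a choice made after seeing the data, its difference was 0.31, below the fold required.

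Markers of other cells moved with the late rise of Pdk4, and their part was not tested. All 6 markers of oligodendrocyte precursors rose, with a median of 5.04, as did all 6 of astroglia, with a median of 3.55. Also higher were 6 of 10 radial glia markers, 3 of 5 pericyte markers and 4 of 10 genes of dissociation stress, while 9 of 12 neuron markers and 5 of 6 Cajal-Retzius markers fell. The summed level of the oligodendrocyte precursor markers in NSC averaged 46.9 TPM at E15.5, 205 TPM at E16.5, 570 TPM at E17.5, 845 TPM at E18.5 and 1960 TPM at PN.

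The levels of BP were then set against those of NSC over the 8 stages that both have, with 23 and 27 libraries. Of the members 3 were lower in BP and 0 higher, where 8.09% of all genes were called (1.87% higher and 6.22% lower), and the medians were -0.32 and -0.02. With no fold required, 28 differed by the adjusted p, against 76.2% of all genes. Pdk4 was at 0.0842 to 0.994 TPM in BP and 0.273 to 25.3 TPM in NSC, and every BP library was below every NSC library at 7 of 8 stages. Its difference was -1.57 ± 0.05 (limma, adjusted p = 5.4e-33), a mean over unlike stages. At E13.5 to E15.5 both cell types were near the floor, with means of 0.239 TPM in BP and 0.675 TPM in NSC. From E17.5 on the means were 0.585 and 15.6 TPM. Ldha was at 119 to 447 TPM in BP, median 222, and at 320 to 813 TPM in NSC, median 579. The 2 ranges overlapped over the whole period, but at each of the 8 stages every BP library was below every NSC library, and the difference was -1.17 ± 0.04 (adjusted p = 3.47e-33). Slc16a3, at medians of 1.83 TPM in BP and 5.49 TPM in NSC, had a difference of -1.02 ± 0.07 and was lower without overlap at 7 of 8 stages. That call was lost, at -0.991 to -0.998, when any 1 of 4 libraries was left out: NSC E17.5 replicate 1, BP E14.5 replicate 3, BP E17.5 replicate 1 or BP E18.5 replicate 1. The Slc16a3 call was also lost with median-ratio scaling (-0.998), quantile scaling (-0.80) and a pseudocount of 5 (-0.56).

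Most other enzymes of the path were lower in BP by less than the fold required. Hk2 was at -0.96 ± 0.06, with means of 5.13 and 11.6 TPM, Pgk1 at -0.72 ± 0.03, Pgam1 at -0.71 ± 0.03, Eno1 at -0.65 ± 0.04, Gapdh at -0.58 ± 0.03 and Slc2a1 at -0.55 ± 0.04. Gapdh was lower in every BP library at all 8 stages. Ldhb did not follow Ldha and had a difference of -0.02 ± 0.03, with means of 468 and 475 TPM. On the positive side, Eno2 was at 0.64 ± 0.06, Slc2a3 at 0.53 ± 0.11 and Hk1 at 0.51 ± 0.06. No member was separated without overlap over the 8 stages as a whole, as were 0.0322% of genes on the higher and 0.98% on the lower side. With E15.5 and E16.5 left out, a choice made after seeing the data, 1 member was called higher and 4 lower, where 3.94% and 7.96% of all genes were, Hk2 at -1.17 and Eno2 at 1.14 being the additions. Beside these values, all 10 cell cycle genes and all 10 radial glia markers listed were called lower in BP, as were all 7 interneuron and ventral markers, all 6 oligodendrocyte precursor markers (median -2.77), 3 of 6 astroglial markers, 2 of 5 pericyte markers and 4 of 10 dissociation stress genes. Higher in BP were 6 of 12 neuron markers and 5 of 6 Cajal-Retzius markers. Of the 6 basal progenitor markers only 1 was called higher and 0 lower, with a median of 0.26. By the adjusted p alone 3 of them were higher and 2 lower. The part of these markers was not tested.

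**Figure D4:**
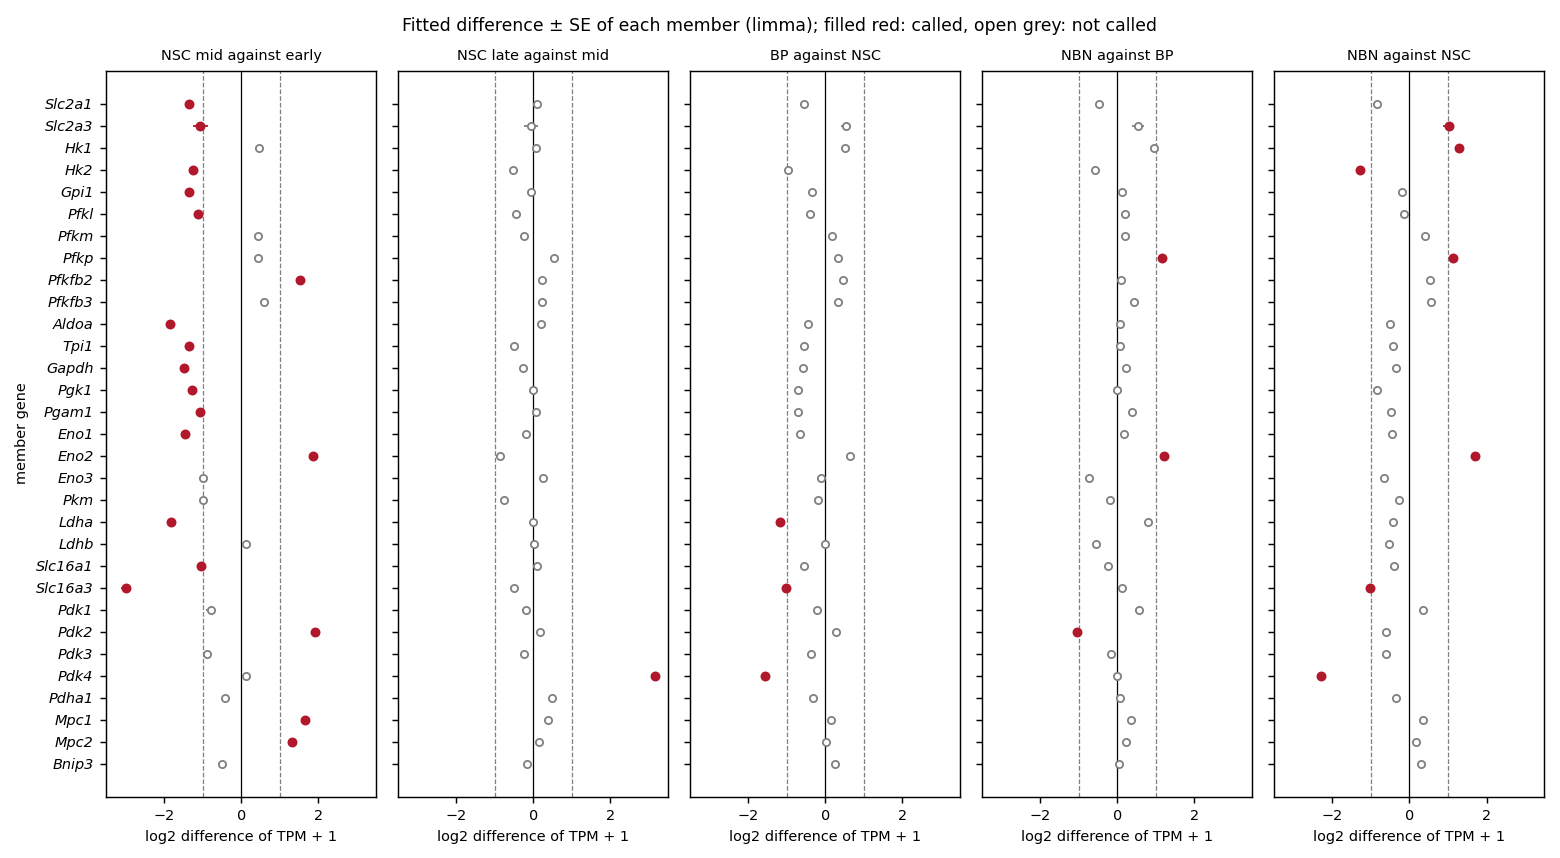
Fitted difference in log2(TPM + 1) with its standard error for each of the 31 members in 5 comparisons, with filled red points for members called and open grey points for the others. The middle-against-early comparison of NSC holds 19 calls, 14 of them lower, and the others hold 1 to 7.

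Newborn neurons, compared with BP over 5 shared stages with 14 libraries each, had 2 members higher and 1 lower, where 9.42% of all genes were called (4.36% higher and 5.06% lower), with medians of 0.11 and -0.07. A total of 23 differed by the adjusted p alone, against 69.8% of all genes. Eno2 was at 51.8 to 61.5 TPM in NBN, median 56.8, and at 12.7 to 32.9 TPM in BP, median 23.6. The cell types did not overlap, and the difference was 1.21 ± 0.09 (adjusted p = 6.54e-18). Pfkp (chr13:6579768-6648777, minus strand), the platelet-type phosphofructokinase, which the brain also expresses, was at 15.53 to 33 TPM against 4.11 to 14.3 TPM, again without overlap, a difference of 1.16 ± 0.09 (adjusted p = 1.22e-16). Pdk2 was at 18.52 to 36.8 TPM in NBN and 45.2 to 57.9 TPM in BP, lower in every NBN library, with a difference of -1.04 ± 0.06 (adjusted p = 1.72e-20).

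Hk1 and Ldhb were separated in all libraries without reaching the fold. Hk1 was at 115.4 to 192 TPM in NBN and 54.5 to 101 TPM in BP, a difference of 0.96 ± 0.08. Ldhb was at 302 to 358 TPM in NBN and 433 to 520 TPM in BP, a difference of -0.55 ± 0.03. Together with the called members Eno2, Pfkp and Pdk2, 3 members were higher and 2 lower without overlap, against 6.17% and 8.3% of all genes. Ldha was at 0.80 ± 0.05 and was higher in every NBN library at each of the 5 stages. The split depended on scaling: with median-ratio scaling Hk1 was added at 1.06 and Pdk2 was lost at -0.94, giving 3 higher and 0 lower (5.06% and 4.24% of all genes), and with quantile scaling 2 were higher and 0 lower (5.03% and 4.24% of all genes). Without E15.5 and E16.5 (added after seeing the data) 0 members were called, where 3.97% of all genes were higher and 4.98% lower, since Eno2 stood at 0.98, Pdk2 at -0.96 and Pfkp at 0.93. Of the markers, 5 of 12 neuron genes were called higher and 8 of 10 cell cycle genes lower in NBN than in BP. All 6 basal progenitor markers and 4 of 10 radial glia markers were lower and 4 of 8 microglial markers higher, and the part of these lists was not tested.

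Against NSC of the same 5 stages (17 libraries), NBN had 4 members higher and 3 lower, where 19.1% of all genes were called (6.51% higher and 12.6% lower). All 31 differed by the adjusted p alone, as did 80.9% of all genes. This comparison shares its libraries with the 2 before it. Eno2 was at 5.78 to 47.4 TPM in NSC, below every NBN library, and the difference was 1.70 ± 0.08 (adjusted p = 1.57e-25). Hk1 (chr10:62268855-62379908, minus strand) was at 37.2 to 111 TPM in NSC, also below every NBN library, with a difference of 1.29 ± 0.07 (adjusted p = 8.91e-23). Hk2 (chr6:82725025-82774454, minus strand) had the opposite order, with 1.87 to 4.42 TPM in NBN and 5.33 to 13.1 TPM in NSC, no overlap, and a difference of -1.27 ± 0.08 (adjusted p = 9.34e-22).

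Pfkp was higher by 1.12 ± 0.09 and Slc2a3 by 1.02 ± 0.14, both with overlapping libraries, and Slc2a3 had medians of 22.4 TPM in NBN and 10.1 TPM in NSC. Pdk4 was at 0.106 to 1.07 TPM in NBN and 0.503 to 25.3 TPM in NSC, with a difference of -2.29 ± 0.07 (adjusted p = 6.2e-36), and Slc16a3 had a difference of -1.02 ± 0.09. Slc2a3 and Slc16a3 stood close to the fold required. The Slc2a3 call was lost (0.956 to 0.999) without any 1 of NSC E15.5 replicate 2, E16.5 replicate 4, E17.5 replicates 2 and 3, E18.5 replicate 1 and PN replicate 2, or NBN E18.5 replicate 2 and PN replicate 2. The Slc16a3 call was lost (-0.975 to -0.996) without NSC E17.5 replicate 1 or E18.5 replicate 2, or NBN E17.5 replicate 2 or E18.5 replicate 1. Members without overlap were 2 on the higher and 3 on the lower side, against 3.03% and 9.2% of all genes, the lower ones being Hk2, Ldhb and Slc2a1, at 24 to 37.8 TPM in NBN and 38.5 to 80.3 TPM in NSC. Median-ratio scaling gave 4 higher and 2 lower (7.87% and 11% of all genes) and quantile scaling 4 higher and 1 lower (9.38% and 9.69% of all genes), without Slc16a3 in both and without Hk2 (-0.86) in the second. Of the markers, 10 of 12 neuron genes, 5 of 6 Cajal-Retzius, 4 of 8 microglial and 4 of 9 erythroid genes were called higher. All 10 cell cycle genes, all 10 radial glia, all 6 astroglial, all 6 basal progenitor, 5 of 6 oligodendrocyte precursor and 6 of 7 interneuron and ventral markers were lower, as were 5 of 10 dissociation stress genes. The part of these lists in the calls of Pdk4, Hk2 and the others was not tested.

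Within BP, no member was called between E17.5 to PN (7 libraries) and E13.5 to E15.5 (10 libraries) in limma, where 4.71% of all genes were (3.29% higher and 1.42% lower), although 18 had an unadjusted p under 0.05, as did 63.7% of all genes. By the adjusted p alone 18 differed, against 60% of all genes. Slc16a3 was at -0.82 ± 0.12, with means of 1.38 and 3.27 TPM. Pgk1 was at 88.5 to 126 TPM late and 129 to 224 TPM before, a difference of -0.75 ± 0.05, and it was 1 of 4 members that were lower without overlap, with Tpi1, Pkm and Pdk3, where 2.78% of all genes were, while 0 were higher without overlap, against 5.66%. Pfkfb2 was at 0.63 ± 0.10. Within NBN, no member was called between E17.5 to PN and E15.5 to E16.5 (7 libraries each), where 2.33% of all genes were (1.27% higher and 1.06% lower) and 14 members had an unadjusted p under 0.05, as did 43.4% of all genes. By the adjusted p alone 13 differed, against 34.5% of all genes. Slc16a1 came nearest, at 9.64 to 12.1 TPM late and 17.1 to 24 TPM before, with no overlap and a difference of -0.92 ± 0.08. Pdk3 was also lower without overlap at -0.58 ± 0.07, and Pdk4 was higher without overlap at means of 0.658 and 0.242 TPM, where 4.13% of all genes were lower and 3.68% higher. Beside these values, 4 of 8 microglial markers rose in late NBN, and 4 of 7 interneuron and ventral markers rose in late BP.

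The late change was tested for a difference between NSC and BP by an interaction of cell type and window. Of the members 1 was called, on the lower side, where 9.7% of all genes were (2.86% higher and 6.85% lower), and by the adjusted p alone 19 differed, against 52.2% of all genes. The member called was Pdk4, whose late change in BP was smaller than that in NSC by 2.81 ± 0.12 (adjusted p = 1.48e-26), with a mean going from 0.675 to 15.6 TPM in NSC and from 0.239 to 0.585 TPM in BP. Eno2, at 0.91 ± 0.15, and Pgk1, at -0.74 ± 0.07, did not reach the fold required. In the same interaction all 6 oligodendrocyte precursor markers (median -4.39), all 6 astroglial markers (median -1.94), 6 of 10 cell cycle genes and 5 of 10 radial glia markers were lower, and 6 of 12 neuron and 5 of 6 Cajal-Retzius markers were higher. Their part was not tested.

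The balance of isozymes, as the share that 1 gene takes of the summed TPM of its family, moved with stage and cell type. Ldha made up 86.5% ± 0.779 (SD, n = 3) of Ldha plus Ldhb in NSC at E10.5, 41.2% ± 1.95 (n = 4) at E16.5 and 62.9% ± 4.01 (n = 3) at E17.5. Its share was 19% to 46.1% over the BP stages and 39.6% to 57.5% over the NBN stages. Hk2 made up 57% ± 0.572 of Hk1 plus Hk2 in NSC at E10.5, 7.3% at E16.5 and 1.38% to 3.21% in NBN. Hk1 was therefore the larger part of the hexokinase transcripts in NSC at E16.5 and nearly all of them in NBN, while Hk2 led at E10.5.

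For phosphofructokinase, Pfkl made up 76.3% of the 3 isozymes in NSC at E10.5 and 22.8% at PN, and Pfkp made up 8.93% to 14.3% in NBN. Eno2 made up 0.0987% of the enolases in NSC at E10.5, 6.9% at E16.5 and 9.38% to 16.3% in NBN, so Eno1 remained the main enolase transcript in all of these groups. Slc16a3 made up 58.9% of Slc16a1 plus Slc16a3 in NSC at E10.5 and 5.42% at PN, and in BP it went from 64.8% at E12.5 to 3.7% at PN. Among the Pdk kinases, Pdk3 held 56.4% in NSC at E10.5, Pdk2 held 60.1% in NSC at E16.5 and 73.9% in BP at PN, and Pdk4 held 1.04% in NSC at E15.5 and 25.1% at PN.

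**Figure D5:**
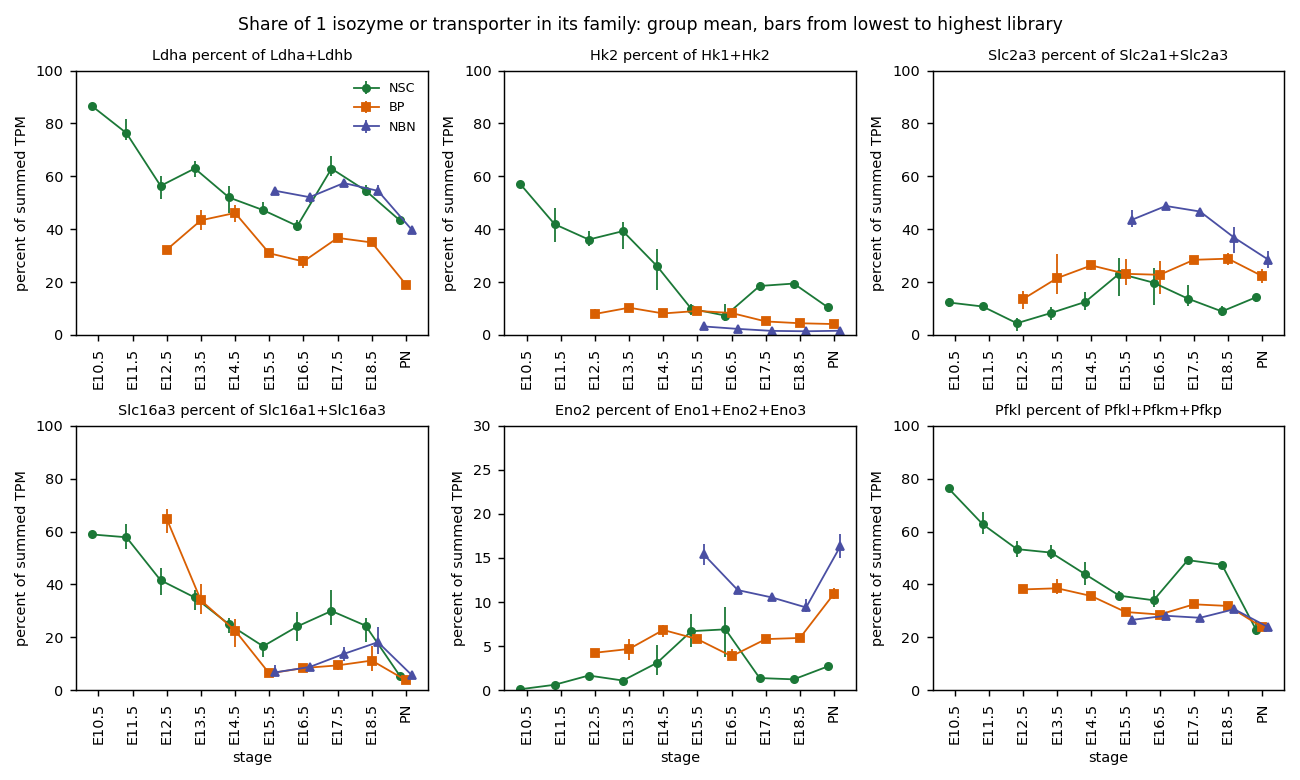
Share of 1 gene in the summed TPM of its isozymes, in percent, against stage for NSC, BP and NBN, with points at the mean over libraries and bars from the lowest to the highest library; the Eno2 axis ends at 30%, the others at 100%. The Ldha share in NSC goes from 86.5% at E10.5 to 41.2% at E16.5 and back up to 62.9% at E17.5.

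Other genes of energy metabolism were counted with the same rule, and the shares of all genes called in each comparison are those given above. In middle against early NSC, 2944 of the 15508 tested genes were called. Between the middle and early NSC windows, 2 of 25 other tested genes of glycolysis and its branches rose and 2 fell, with a median of 0.08. Aldoc, the astroglial and radial glial aldolase, rose from a mean of 2.42 to 139 TPM, by 5.30 ± 0.18, while Aldoa fell. Of 18 genes of the tricarboxylic acid cycle 1 fell, the succinyl-CoA ligase subunit Suclg2, from 65.3 to 25.1 TPM, and of 43 nuclear genes of the respiratory chain 1 rose, Uqcrq by 1.07. Of 13 mitochondrially encoded genes 5 rose, mt-Nd6 by 1.44 among them. Of 24 known hypoxia-responsive genes outside the members, 2 rose (Ndrg1 by 3.99 and Ddit4 by 1.82) and 3 fell, Loxl2 by 3.12 and Ak4 by 1.57 among them, with a list median of -0.10.

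In BP against NSC, 1255 of the 15508 tested genes were called. There 1 of the 25 other glycolysis genes was called lower, Aldoc at 9.71 against 265 TPM, as were 5 of 14 genes of the pentose phosphate and serine branches. Phgdh, the first enzyme of serine synthesis from a glycolytic intermediate, was among the latter at 19 TPM in BP and 243 TPM in NSC. In NBN against BP, 2 of the 25 were called higher and 2 lower, where 1461 of all tested genes were called. The higher ones were the monocarboxylate transporter Slc16a7 of neurons, at 13.2 against 2.97 TPM, and the malic enzyme Me1. In late against middle NSC, 4 of the 25 rose, where 1824 of all tested genes were called. Among the 4 were the glycerol-3-phosphate dehydrogenase Gpd1, from 5.31 to 25.6 TPM, and the pyruvate carboxylase Pcx, from 18.2 to 77.5 TPM, beside the rise of Pdk4.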

How the data were processed

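Sorted NSC, BP and NBN were measured as 70 bulk RNA-seq libraries. The deposited values are TPM per gene made by the authors, with kallisto 0.43.0 and the builds GRCm38.p2 and mm10 named, per the submitters' processing notes. Depth is unknown, since TPM keeps none, and no count model was used. Libraries had 16098 to 21210 genes above 0, and no pair of libraries was identical.

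The values were taken as log2(TPM + 1), which understates changes of low genes, and fitted with limma 3.58.1 in R 4.3.3 with 1 mean for each of 23 groups (47 residual degrees of freedom). Genes needed a mean of 1 TPM in at least 1 group, which 15508 of 23078 reached. Means of stages were weighted equally within a contrast. A gene was called at a Benjamini-Hochberg adjusted p under 0.05 over all tested genes and a difference of at least 1. Counts over members have no test of their own. Full statistics are given for the 3 members with the largest called difference in each direction of a contrast, and values without overlap come from the single libraries. The fit was tested on simulated data.

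The members, the lists and the stage windows were chosen with earlier results of these data known. Gene coordinates are those of GENCODE vM21 on GRCm38, matched by Ensembl ID for 22361 genes. Of 36 other genes of glycolysis listed, 33 were in the table and 25 were tested. The alternatives tried were other pseudocounts, filters, scalings and stage windows, the adjusted p alone, a replicate block and each library left out. Summaries used Python 3.11.15 with pandas 2.3.3.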

Additional observations from a re-analysis of the deposited data

Results flagged for a closer look

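Each member was looked at in the 5 groups with 4 libraries for a library that stood far from the other 3, by Dixon's ratio at its 95% level. With 31 members in 5 groups, this marked 9 combinations, and chance marks about 1 in 20 groups. Of these, 5 were in NSC at E16.5. In its replicate 4 Hk2 was high at 8.84 TPM against 5.70 to 6.20 TPM in the others, Tpi1 was high at 288 TPM against 224 to 228 TPM, and Pgam1 was high at 277 TPM against 225 to 228 TPM. In its replicate 1 Slc16a1 was low at 9.51 TPM against 12.2 to 12.4 TPM, and in its replicate 2 Slc16a3 was low at 2.81 TPM against 3.85 to 4.00 TPM. Markers also differed in replicate 4 of this group. Summed neuron markers were at 4062 TPM there against 5420 to 6541 TPM in the others, and radial glia markers at 3888 TPM against 1644 to 2507 TPM. Their part was not tested.

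In BP at E15.5, Pfkfb2 was low in the third library, at 22.2 TPM against 27.0 to 27.9 TPM, and Mpc2 was high in the same library, at 74.4 TPM against 63.2 to 64.8 TPM. Pdk1 was low in the first library, at 8.25 TPM against 9.64 to 9.85 TPM. In NSC at E13.5, Pfkfb3 was low in the first library, at 31.002 TPM against 41.6 to 42.6 TPM.

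The late change of Pdk4 differed between BP and NSC, with an interaction of -2.81 ± 0.12 on the log2 scale by limma.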

How the results depend on the processing

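Counts of members called were 3 in BP against NSC, 3 in NBN against BP, 7 in NBN against NSC, 19 in middle against early NSC, 1 in late against middle NSC, 0 in late BP, 0 in late NBN, 1 in the interaction and 15 over the daily steps. No called member changed its direction under the alternatives run. The adjusted p alone, which gained many calls, is left out of the next counts. Over the members, 2550 results under the other settings kept their side of the threshold, 29 lost the call and 25 gained it. With 1 library left out these numbers were 6600, 20 and 14. Among results not called, 67 took the opposite sign under other settings and 45 with 1 library left out, and 0 of these had an adjusted p under 0.05 in both fits. They include Ldha in late against middle NSC, at 0.31 without PN (adjusted p = 5.74e-05, limma). A pseudocount of 0.1 gave 1 call in late BP (Slc16a3 at -1.23) and 1 in late NBN (Pdk4 at 1.13). A pseudocount of 5 gave 1 call in BP against NSC, 1 in NBN against BP, 3 in NBN against NSC and 9 over the daily steps. Shares of all genes were not computed for the pseudocounts, the E12.5 to E16.5 window, leaving out PN, single libraries left out or the replicate block. Member counts under these settings therefore cannot be read against all genes. Quantile scaling gave 2 calls in late NSC (Eno2 at -1.21), 1 in late BP (Slc16a3 at -1.03) and 2 in the interaction (Eno2 at 1.12). In these comparisons 1641, 656 and 1558 of all tested genes were called, against 1824, 730 and 1505 in the main fit. Scaling moved the median of all genes in middle against early NSC from 0.144 to -0.045 (median ratio) or -0.026 (quantile). That of the members moved from -0.98 to -1.24 or -1.05. Median-ratio scaling called 23 members there, 5 higher and 18 lower. The share of all genes was not computed for this comparison under that scaling, so the 23 cannot be read against it. Quantile scaling called 21 members, 5 higher and 16 lower, where 2774 of all tested genes were called against 2944 in the main fit. The adjusted p alone gave 28, 23, 31, 30, 20, 18, 13 and 19 members in the order above and 31 over the daily steps. A middle window of E12.5 to E16.5 gave 2 in the interaction (Eno2 at 1.23). Of the alternatives chosen after seeing the data, E11.5 alone as the early window gave 11, leaving out PN gave 2 in late NSC (Eno2 at -1.12) and 2 in the interaction (Eno2 at 1.10), and leaving out E15.5 and E16.5 gave 5 in BP against NSC and 0 in NBN against BP. With 1 library left out the counts ranged from 2 to 3, 3 to 3, 6 to 7, 18 to 21, 1 to 1, 0 to 0, 0 to 0 and 1 to 1 in the order above, and from 12 to 17 over the daily steps. Causes were not tested. The pseudocount of 5 also ended calls of members at higher levels, such as Pdk2 (-0.93) and Pfkp (0.92) in NBN against BP and Slc16a1 (-0.93) in middle against early NSC. Without depth the counting error of low members is unknown.

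Libraries share replicate numbers across cell types, and the median correlation of deviations for the same number was 0.126 for BP with NBN, 0.044 for NSC with BP and -0.040 for NSC with NBN, against -0.033, -0.044 and 0.023 for different numbers. The lowest pair with the same number was at -0.236, and the lowest with different numbers in BP with NBN at -0.366. These correlations do not settle whether libraries of the same number are paired. The libraries were fitted as unpaired, and a pairing of BP with NBN was not tested. With the replicate number as a block the counts were 3, 3, 7, 21, 1, 0, 0 and 1 in the order above and 15 over the daily steps. Eno3 at -1.005 and Pkm at -1.003 were added in middle against early NSC. That block gives each number 1 effect shared by all stages, so it does not test pairing within a stage.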

Other observations

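Regulators of energy metabolism outside the members were described by the same rule. Between the middle and early NSC windows, where 2944 of the 15508 tested genes were called, 3 of 16 rose and 0 fell. Among the 3 were Prkaa2, a catalytic subunit of the energy sensor AMPK, by 1.63, and the nuclear receptor Esrra by 1.25. Ppargc1a, a coactivator of mitochondrial genes, rose by 1.72 in late against middle NSC and was lower in BP than in NSC, at -1.10. Of the 24 hypoxia-responsive genes, 6 rose and 1 fell in late against middle NSC, where 1824 of all tested genes were called. Egln3 was at 2.05, Stc2 at 1.65 and Ndrg1 at -1.36. In NBN against BP, 3 of the 24 were called higher and 1 lower, where 1461 of all tested genes were called. Ndrg1 was the largest of these 24 genes' calls, with means of 303 TPM in NBN and 15.8 TPM in BP.

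Within BP the late window had Stc2 higher by 2.45 and Egln3 by 1.94, and Ndrg1 lower, at -2.52, than the middle window. Suclg2, the succinyl-CoA ligase subunit, was at -1.35 in middle against early NSC, -1.54 in BP against NSC, -2.58 in NBN against NSC and -1.53 in late against middle BP. It was not called in late against middle NSC, and the interaction of BP minus NSC was -2.09, so NSC did not share the late fall. These comparisons share libraries and are given side by side.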
